A study of Mus musculus with 32 samples.

Results

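*Meis1*, *Pbx3*, *Mef2c*, *Eya1*, *Mecom*, *Prdm16*, *Mn1* and *Myb* are transcription factors or transcription cofactors outside the Hox clusters whose genes are targets of MLL fusion proteins. They were chosen as the listed symbols found in the expression tables of both cell types, together with the IGF2BP3 eCLIP peaks that carry their Ensembl IDs, and make up 8 genes of 28827 listed in either table. Because the peaks helped to choose them, the presence of a peak on a gene is given as a description. The label could be checked against the data only in that all 8 genes were listed in both tables, since no binding data of the fusion protein were used here.

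IGF2BP3 is an RNA-binding protein of fetal tissues that is made again in *MLL*-rearranged leukemia. In eCLIP, RNA is crosslinked to the protein by UV light, the protein is precipitated with an antibody, and the sequenced RNA fragments pile up as peaks where the protein lay. The genes followed here act at several steps of blood cell identity: MEIS1 and PBX3 bind DNA as partners of HOX proteins, MYB drives the growth of immature blood cells, and MECOM and PRDM16 are zinc finger proteins known from hematopoietic stem cells.

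The libraries came from mouse cells. Lin- cells were lineage-depleted bone marrow cells transduced with an MSCV retrovirus that carries MLL-flag-Af4 and selected with G418, so they are a culture immortalized by the fusion. CD11b+ cells were selected on magnetic columns from splenic tumors of leukemic mice. The donor marrow was from C57BL/6J mice or from I3KO mice, which carry a germline deletion of *Igf2bp3*, and every group compared here carried MLL-Af4, the controls included. eCLIP was made from WT/MLL-Af4 cells only, with 6 Lin- libraries (biological replicates 1 to 3 and technical replicates 4 to 6) and 4 CD11b+ libraries (biological replicates 1 and 2 and technical replicates 3 and 4). Each had a size-matched input (smInput), which is the RNA of the same gel range without precipitation. RNA-seq had 3 WT and 3 I3KO libraries per cell type. The names of the CD11b+ eCLIP libraries begin with bm and the protocols speak of spleen, so the tissue of these libraries was not settled here, and the labels give no age.

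After the authors removed peaks that overlapped smInput peaks, the Lin- eCLIP libraries held 4040 to 10042 peaks and the CD11b+ libraries 7085 to 10054. Reads in peaks before this filter ranged from 137856 to 711782 per Lin- library and from 182385 to 428244 per CD11b+ library. Each technical library shared the most merged regions with 1 biological library (Lin- 4 with 1, 5 with 2, 6 with 3, and CD11b+ 3 with 1, 4 with 2), with 56.7% to 65.7% of its regions shared, so technical libraries were not counted as further replicates. Marker levels, as pooled means over WT and I3KO, showed *Kit* at 6974 in Lin- and 673.1 in CD11b+ cells and *Lyz2* at 20990 and 72146. *Itgam*, which encodes CD11b itself, stood at 16.97 in the CD11b+ table and was not listed in the Lin- table. All 4 T cell markers were at 14.83 or below wherever they were listed, and the B cell markers reached at most 145.9.

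IGF2BP3 peaks on these genes lay in 46 regions, of which *Myb* held 19, *Mef2c* 9, *Meis1* 6, *Pbx3* 4, *Eya1* 3, *Prdm16* 2, *Mn1* 2 and *Mecom* 1. A region here joins all filtered peaks of a gene that overlap by at least 1 base. Of the 46 regions, 26 had peaks in Lin- libraries only, 15 in CD11b+ libraries only and 5 in both. Several kinds of sequence recurred under the peaks: 24 regions held a 6-base stretch of a dinucleotide repeat, 17 lay within 100 bases of a splice site or across one, 3 held a run of 6 guanines, and 2 lay in the untranslated ends of the *Myb* transcript. A region can be of several kinds, and 7 were of none. Examples are shown next. All sequences are read on the strand of the gene from the GRCm38 (mm10) genome.

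The first pair is shown because these sites carried the most reads summed over the libraries. The first lies in the 5′ untranslated part of *Myb* exon 1 and the second in its 3′ untranslated region. Each is a stretch of 30 bases around the middle of the strongest peak, with no capitals.
*Myb* exon 1, chr10:21160903-21160932, minus strand: taatatcaacctgtttcctcctcctccttc
*Myb* 3′ untranslated region, chr10:21125438-21125467, minus strand: atgctgctagctagtgtcagggggcaatag

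The second set shows 9 *Myb* regions, and the recurring one of *Mef2c*, that lay at or near a 3′ splice site, where an intron meets the next exon. The exon 3 region has 115 bases and its midpoint in the exon, and it runs on past the printed bases to chr10:21154690. The first 10 exon bases are in capitals, and the lower case part runs from the start of the region, or from 25 bases before the exon where that is farther, to the last intron base. Exon and intron numbers follow the transcript with the longest coding sequence.
*Myb* exon 3, chr10:21154746-21154804, minus strand: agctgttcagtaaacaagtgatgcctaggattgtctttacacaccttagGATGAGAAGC
*Myb* exon 4, chr10:21152975-21153028, minus strand: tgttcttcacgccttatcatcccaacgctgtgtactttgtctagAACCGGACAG
*Myb* exon 5, chr10:21152647-21152711, minus strand: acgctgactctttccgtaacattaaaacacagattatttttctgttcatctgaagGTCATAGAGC
*Myb* exon 8, chr10:21148427-21148498, minus strand: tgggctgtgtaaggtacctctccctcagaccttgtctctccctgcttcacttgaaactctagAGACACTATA
*Myb* exon 9, chr10:21146431-21146499, minus strand: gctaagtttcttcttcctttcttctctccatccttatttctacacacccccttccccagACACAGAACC
*Myb* exon 12, chr10:21142077-21142127, minus strand: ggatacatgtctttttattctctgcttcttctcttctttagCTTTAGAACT
*Myb* exon 14, chr10:21140668-21140702, minus strand: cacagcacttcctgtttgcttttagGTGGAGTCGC
*Myb* exon 15, chr10:21139391-21139442, minus strand: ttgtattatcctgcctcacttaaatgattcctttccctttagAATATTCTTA
*Myb* exon 16, chr10:21126280-21126329, minus strand: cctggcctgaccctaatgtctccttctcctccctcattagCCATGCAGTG
*Mef2c* exon 10, chr13:83655460-83655516, plus strand: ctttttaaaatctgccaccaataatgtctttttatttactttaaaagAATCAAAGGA

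The third set shows a pair of *Myb* intron 1 regions that had peaks in all 4 CD11b+ libraries and no Lin- library. Runs of 6 or more guanines are in capitals.
*Myb* intron 1, nearer the start, chr10:21160399-21160432, minus strand: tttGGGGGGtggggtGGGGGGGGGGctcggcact
*Myb* intron 1, farther from the start, chr10:21159468-21159500, minus strand: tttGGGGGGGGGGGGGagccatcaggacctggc

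Of 11 intronic regions of the other genes that had peaks in at least 2 libraries, technical ones included, 10 held a repeat 6-mer. The exception is the *Mef2c* exon 10 region above. The last set shows 8 of these 10, as examples of the repeats. Capitals mark every 6-base stretch of a CA, GT, GA or CT repeat.
*Meis1* intron 7, nearer the start, chr11:18984718-18984799, minus strand: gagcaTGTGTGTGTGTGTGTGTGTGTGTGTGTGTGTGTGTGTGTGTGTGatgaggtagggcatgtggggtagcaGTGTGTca
*Meis1* intron 7, farther from the start, chr11:18949888-18949954, minus strand: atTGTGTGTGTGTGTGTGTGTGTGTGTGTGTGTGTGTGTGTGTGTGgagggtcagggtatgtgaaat
*Meis1* intron 8, chr11:18909389-18909542, minus strand: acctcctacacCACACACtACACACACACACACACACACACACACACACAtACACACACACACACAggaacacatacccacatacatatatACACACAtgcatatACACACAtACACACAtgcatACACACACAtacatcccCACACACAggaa
*Mef2c* intron 4, chr13:83603842-83603914, plus strand: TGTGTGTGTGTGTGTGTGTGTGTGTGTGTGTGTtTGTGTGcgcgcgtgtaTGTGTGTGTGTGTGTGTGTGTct
*Pbx3* intron 2, nearest the start, chr2:34353375-34353447, minus strand: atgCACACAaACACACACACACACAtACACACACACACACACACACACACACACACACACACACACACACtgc
*Pbx3* intron 2, middle, chr2:34319100-34319158, minus strand: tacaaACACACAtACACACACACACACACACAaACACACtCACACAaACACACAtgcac
*Pbx3* intron 2, farthest from the start, chr2:34306929-34307008, minus strand: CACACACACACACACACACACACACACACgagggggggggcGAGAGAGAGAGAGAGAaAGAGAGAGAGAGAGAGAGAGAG
*Mecom* intron 1, chr3:30053260-30053316, minus strand: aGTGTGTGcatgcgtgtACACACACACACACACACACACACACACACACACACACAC

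*Myb* (chr10:21124935-21160984, minus strand) was the most heavily covered of the 8 genes. It encodes a DNA-binding factor that immature blood cells need to keep dividing, and it had filtered peaks in all 10 eCLIP libraries. Lin- libraries 1, 2 and 3 held 6, 3 and 8 peaks, and their technical counterparts 4, 5 and 6 held 7, 3 and 4. CD11b+ libraries 1 and 2 held 6 and 8 peaks, and libraries 3 and 4 held 4 and 7. Per 1000 filtered peaks of the library, the biological means were 0.678 ± 0.333 (SD, n = 3) in Lin- and 0.75 ± 0.0647 (SD, n = 2) in CD11b+ cells. The groups overlapped.

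**Figure D1:**
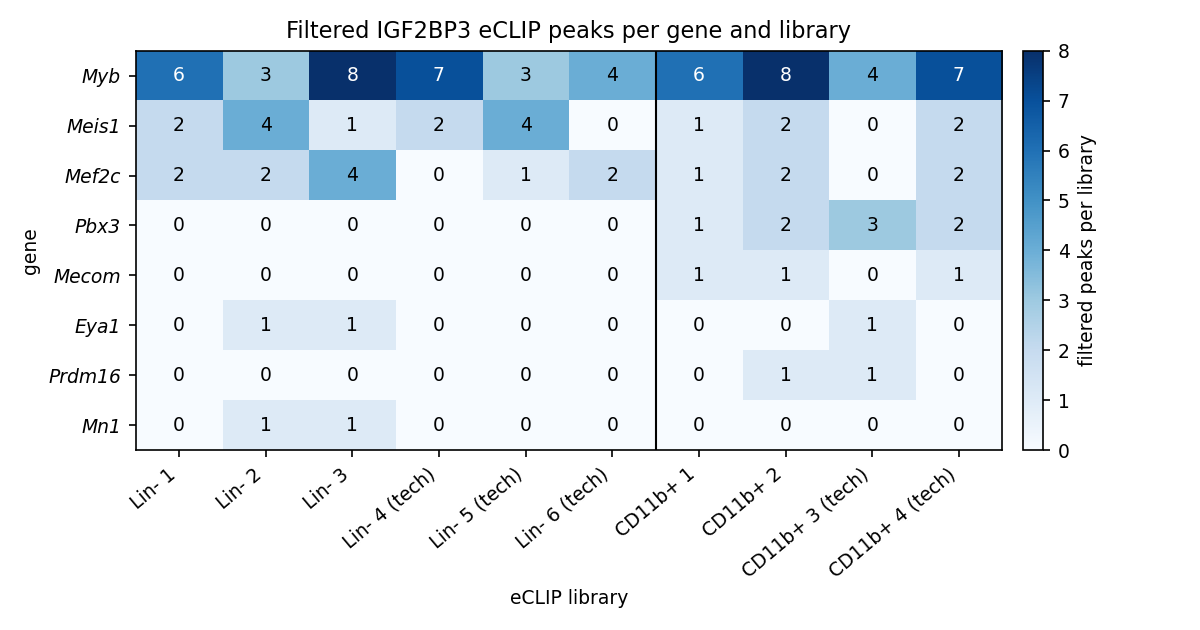
Number of filtered IGF2BP3 peaks in each eCLIP library (columns, with technical replicates marked tech) on each of the 8 genes (rows). *Myb* had 3 to 8 peaks in every library, and *Pbx3* and *Mecom* had peaks in CD11b+ libraries only.

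The exon 1 site of *Myb* had a peak in every library. It covered chr10:21160849-21160959, with its midpoint 80 bases from the start of the gene. Reads in its peaks were 30, 32 and 41 in Lin- libraries 1 to 3 and 15, 12 and 10 in libraries 4 to 6. In CD11b+ libraries 1 to 4 they were 82, 83, 69 and 47. Scaled to 100000 reads in all peaks of the library, the biological values were 8.58, 4.5 and 17.8 in Lin- and 39.3 and 19.4 in CD11b+ cells. Both CD11b+ values lay above all 3 Lin- values, and the nearest pair were 17.8 and 19.4. The site was picked for its reads, and the share of all regions that separate this way was not computed. Nothing is therefore read from this order. Regions found in all 5 biological libraries were 1.86% of the 27431 regions of all genes, and this site was the 1 such region among the 40 regions that the biological libraries gave on the 8 genes.

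Beyond exon 1, the cell types had peaks at different places along *Myb*. In Lin- cells, 11 of the 13 *Myb* regions were intronic, and all 11 had their midpoint within 100 bases of a splice site, 9 of them at a 3′ splice site. A further Lin- region crossed the 3′ splice site of exon 3 and had its midpoint in coding sequence. In the 9 *Myb* introns printed above, 60% to 84% of the last 25 bases were C or T. This is the part of an intron where the pyrimidine tract that splicing factors read usually lies. These bases were not all under the peaks. The region before exon 9 ended 31 bases from the exon, so its share of 76% is of bases outside the region. The regions before exons 16 and 8 ended 9 and 7 bases from the exon. The share in other introns was not computed, so nothing is read from this range.

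The 6 *Myb* sites seen in Lin- libraries alone and in more than 1 library, technical ones included, carried 3 to 25 reads. Only the site before exon 5 had peaks in 2 biological libraries. The site before exon 5 had 5 and 17 reads in Lin- libraries 1 and 3 and 12 and 7 in libraries 4 and 6. The site at exon 3 had 21 reads in library 2, 3 in library 4 and 25 in library 5. The site before exon 8 had 7, 16 and 5 reads in libraries 1, 4 and 5, and that before exon 12 had 4, 4 and 8 in libraries 3, 4 and 6. The site before exon 4 had 10 and 3 reads in libraries 1 and 4, and that before exon 9 had 5 and 4 in libraries 3 and 6. The single region near a splice site with peaks in both cell types preceded exon 15, with 5 reads in Lin- library 1 and 3 in CD11b+ library 4. No member region was found in all 3 biological Lin- libraries and neither CD11b+ library, a pattern shown by 2.64% of all regions.

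In CD11b+ cells, *Myb* peaks beyond exon 1 lay in the 3′ untranslated region and in introns. Of the 6 intronic regions, 1 had its midpoint within 100 bases of a splice site. The site in the 3′ untranslated region had 52, 42, 35 and 15 reads in CD11b+ libraries 1 to 4. The intron 1 site 569 bases from the start had 50, 10, 54 and 9 reads, and the one 1500 bases from the start had 26, 20, 14 and 9. None of the 3 had a filtered peak in any of the 6 Lin- libraries. Together with the *Mecom* site described later they were 4 of the 40 regions of the biological libraries with peaks in both CD11b+ and no Lin- library, beside 6.24% of all regions.

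Other CD11b+ sites of *Myb* were found in fewer libraries. A site in intron 15 had 32 and 13 reads in CD11b+ libraries 2 and 4. In libraries 1 and 3, peaks at the same place with 50 and 46 reads were removed by the smInput filter, and the smInput of library 1 had a peak of 3 reads there. A pyrimidine-only stretch of 48 bases, also in intron 15, had 16 and 19 reads in libraries 2 and 4. A region in intron 6 had 27 reads in library 1 alone. Part of *Myb* is overlapped by *Gm26577* on the other strand, and the peaks carry a strand.

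**Figure D2:**
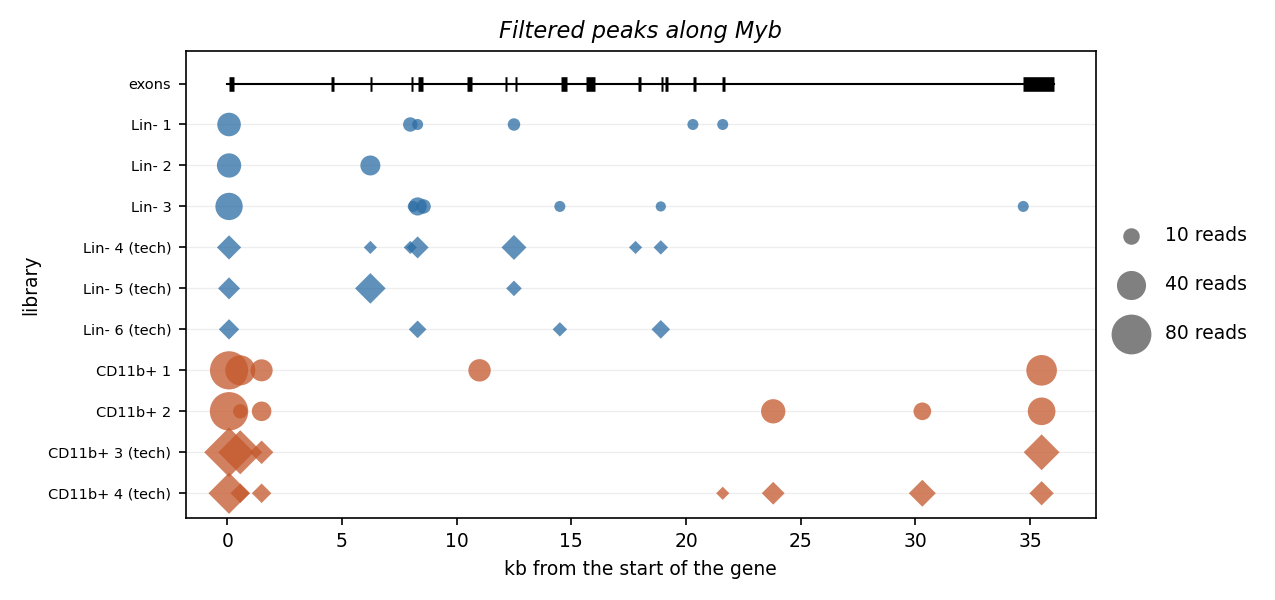
Filtered peaks along *Myb* by distance from the start of the gene in kb (horizontal) in each eCLIP library (rows; circles are biological and diamonds technical replicates, and area grows with the reads in the region). Black boxes at the top are exons of the transcript with the longest coding sequence. Lin- peaks sat beside exons through the middle of the gene, while the CD11b+ libraries shared sites in the first 1.5 kb and at 35.5 kb.

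The same contrast between cell types was seen over all genes. Of intronic regions of all genes, 69.3% (Wilson 95% interval 68.6 to 70.1) lay within 100 bases of a splice site in Lin- and 21.7% (21.1 to 22.4) in CD11b+ cells. By library, this share of intronic peaks ran from 45% to 79.6% in Lin- and from 13.7% to 23.7% in CD11b+ libraries. For *Myb*, intronic peaks near a splice site were 5 of 5 in Lin- library 1 and 6 of 6 in library 3, while library 2 had no intronic *Myb* peak. They were 0 of 3 in CD11b+ library 1 and 0 of 6 in library 2. The intervals for *Myb* regions were wide, 74.1 to 100% for 11 of 11 in Lin- and 3.01 to 56.4% for 1 of 6 in CD11b+ cells. The other 7 genes did not share the high Lin- value of *Myb*. Of their intronic Lin- regions, 5 of 15 were near a splice site (33.3%, 15.2 to 58.3), below the 69.3% of all genes. All 5 were in *Mef2c*. In CD11b+ cells the count was 0 of 11 (Wilson 95% interval 0 to 25.9%). These intervals treat regions of a few genes as independent and pool biological and technical libraries. By library, intronic peaks of these genes near a splice site were 1 of 4, 0 of 6 and 4 of 7 in Lin- libraries 1 to 3. The shares over all genes there were 79.6%, 49.9% and 72.7%. Intron length, which differs between the genes, was not taken into account.

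*Meis1* (chr11:18879817-19018985, minus strand) encodes a homeodomain protein that works with HOX proteins and is needed by *MLL*-rearranged leukemia cells. Its peaks in introns lay on dinucleotide repeats. Lin- libraries 1 to 3 held 2, 4 and 1 peaks, libraries 4 to 6 held 2, 4 and 0, and CD11b+ libraries 1 to 4 held 1, 2, 0 and 2. Per 1000 peaks, *Meis1* stood at 0.262 ± 0.142 (SD, n = 3) in Lin- and 0.158 ± 0.0577 (SD, n = 2) in CD11b+ cells, and the libraries overlapped.

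A pair of GT repeats in *Meis1* intron 7 accounted for all 5 CD11b+ peaks of the gene. The repeat 34.2 kb from the start had 5 and 12 reads in Lin- libraries 1 and 2, 10 in library 5, and 4, 18 and 17 in CD11b+ libraries 1, 2 and 4. The repeat 69.1 kb from the start had 5, 8, 3 and 6 reads in Lin- libraries 1 to 4 and 12 and 7 in CD11b+ libraries 2 and 4. These sites were therefore shared by the cell types. A CA repeat in intron 8 had 5 and 12 reads in Lin- libraries 2 and 5, and at that place the smInput of Lin- library 4 had a peak of 3 reads. The 3 remaining *Meis1* regions, with 3 to 6 reads, were found in Lin- libraries only, and each held a GA, CA or CT repeat.

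*Mef2c* (chr13:83504034-83667080, plus strand) encodes a MADS-box factor of myeloid and lymphoid progenitors. It had 2, 2 and 4 peaks in Lin- libraries 1 to 3, 0, 1 and 2 in libraries 4 to 6, and 1, 2, 0 and 2 in CD11b+ libraries 1 to 4. Per 1000 peaks, the Lin- values were 0.272, 0.199 and 0.461 and the CD11b+ values 0.117 and 0.199. Every Lin- value was above every CD11b+ value, but the closest pair both had 2 peaks and differed only through their library totals of 10042 and 10054. Over all genes with a peak in a biological library, 9.34% had every Lin- library above every CD11b+ library, and *Mef2c* was the only one of the 8 genes that did. Peaks were used to choose the genes, so nothing is read from this.

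A site in intron 2 had peaks in both cell types, with 5 and 7 reads in Lin- libraries 2 and 5 and 18, 7 and 10 in CD11b+ libraries 1, 2 and 4. The other CD11b+ site was a GT repeat in intron 4 with 6 and 8 reads in libraries 2 and 4. In Lin- cells, 5 *Mef2c* regions lay within 100 bases of a splice site, and none of them had a CD11b+ peak. The one at exon 10, printed above, recurred, with 7 and 8 reads in Lin- libraries 1 and 3 and 8 in library 6. The remaining Lin- regions were a GA-rich stretch of intron 3 with 5 reads in library 1 and a site of 6 reads in library 2, in the 5′ untranslated region of another transcript. The *Mef2c* smInput peaks, in CD11b+ libraries 1 and 2, lay at another place in an intron.

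*Pbx3* (chr2:34171457-34373142, minus strand) encodes a TALE homeodomain partner of HOX and MEIS proteins. It had peaks in the CD11b+ libraries only, 1 and 2 in biological libraries 1 and 2 and 3 and 2 in technical libraries 3 and 4, against 0 in all 6 Lin- libraries. All 4 regions lay in intron 2, which spans 146177 bases, and 3 of them held a CA repeat. The region nearest the start had 5, 6 and 8 reads in CD11b+ libraries 2, 3 and 4. The middle one printed above had 7 and 7 reads in libraries 2 and 3, and the farthest had 6 and 6 in libraries 1 and 4. The remaining region, which held no repeat 6-mer, had 11 reads in technical library 3 alone, the most of any *Pbx3* peak. No *Pbx3* region recurred in both biological libraries.

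*Mecom* (chr3:29951296-30548008, minus strand) encodes a zinc finger protein of hematopoietic stem cells. It had 1 peak each in CD11b+ libraries 1, 2 and 4 and none in the 6 Lin- libraries, all at a single CA repeat in intron 1. Reads there were 4, 26 and 29. The site lies 43391 bases before the next exon in an intron of 499532 bases, and its region is overlapped by *Mecomos* on the other strand. For *Pbx3* and *Mecom*, both CD11b+ biological libraries were above all 3 Lin- libraries, which were at 0. This held for 10.6% of all genes with a peak in a biological library, and nothing is read from it, since a gene with no Lin- peak is among those genes only through its CD11b+ peaks. The differences, Lin- minus CD11b+, were -0.158 and -0.108 peaks per 1000, so each rested on 1 or 2 peaks per library.

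*Eya1* (chr1:14168954-14310235, minus strand), *Prdm16* (chr4:154316125-154636873, minus strand) and *Mn1* (chr5:111417362-111457033, plus strand) had single peaks with few reads. *Eya1*, a phosphatase and SIX-family coactivator, had 1 peak in Lin- libraries 2 and 3 and in CD11b+ library 3, at 3 different places, with 6, 3 and 3 reads. *Prdm16*, a zinc finger protein of stem cells, had 1 peak in CD11b+ library 2 on a CA repeat and 1 in library 3 on a GT repeat, with 3 and 4 reads. *Mn1*, a transcription coactivator, had 1 peak of 4 reads in Lin- library 2, on a CAG-rich stretch of its first coding exon, and 1 of 4 reads in Lin- library 3 on a CA repeat in intron 1. No region of these 3 genes recurred between libraries, and the libraries of the cell types overlapped for each.

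**Figure D3:**
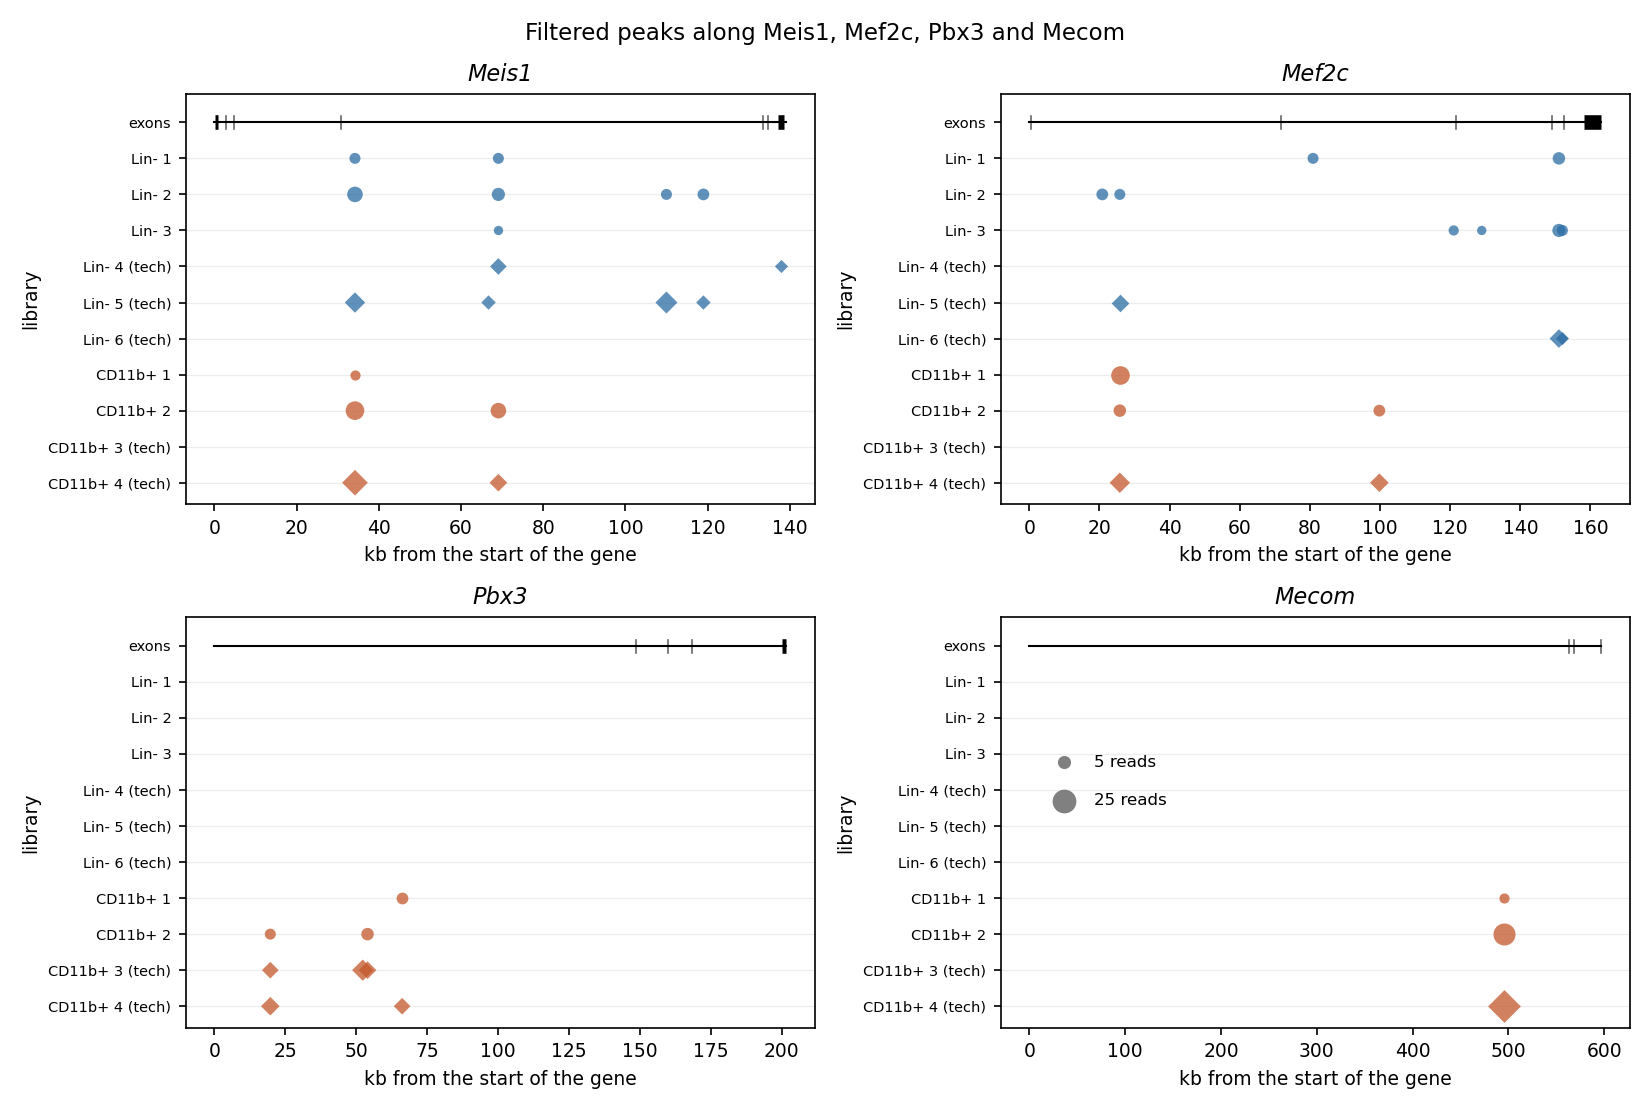
Filtered peaks along *Meis1*, *Mef2c*, *Pbx3* and *Mecom*, drawn as for *Myb*, by distance from the start of each gene in kb. The *Meis1* sites at 34.2 and 69.1 kb had peaks in both cell types, *Mef2c* peaks near 151 kb were in Lin- libraries only, and *Pbx3* and *Mecom* peaks were in CD11b+ libraries only.

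Taking the 8 genes as a group, 5 had a filtered peak in any Lin- library (*Eya1*, *Mef2c*, *Meis1*, *Mn1* and *Myb*) and 7 in any CD11b+ library (all but *Mn1*). Of all genes in the table, 26.5% had a Lin- peak and 25.6% a CD11b+ peak. These genes are long and mostly expressed: among genes whose mean normalized count was 100 or more and whose length was 30 kb or more, 61.2% had a Lin- and 67.4% a CD11b+ peak, beside 5 of 7 and 5 of 5 members that met both criteria. Nothing is read from these counts, since peaks were used to choose the genes. The 8 genes together gave 1.36, 1.1 and 1.73 peaks per 1000 in Lin- libraries 1 to 3 and 1.17 and 1.59 in CD11b+ libraries 1 and 2. The difference of the means was 0.0112 per 1000, which was less than the spread between replicates.

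Of the 40 regions from biological libraries, 10 were found in at least 2 of these libraries, beside 31.2% of the regions of all genes. They were 5 regions of *Myb*, 2 of *Meis1*, 2 of *Mef2c* and 1 of *Mecom*. The smInput libraries had few peaks on these genes, 1 in Lin- library 4 and 0 in the other 5, and 2, 1, 0 and 2 in CD11b+ libraries 1 to 4. The smInput filter removed 0 of 59 Lin- peaks on the 8 genes, which allows a share of up to 5.08%. For a count of 0, this limit is 3 divided by the number of peaks or regions, not a Wilson limit. Of 51 CD11b+ peaks, 2 were removed (3.92%, Wilson 95% interval 1.08 to 13.2). Both lay at the same *Myb* intron 15 site, in library 1 and its technical counterpart 3. These counts include technical libraries, so the limits treat repeats as independent and are too narrow. Over all genes the filter removed 16.9% and 13.6%.

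The regions were mostly intronic in both cell types. Merged within a cell type, 26 of 31 Lin- regions (83.9%, 67.4 to 92.9) and 17 of 20 CD11b+ regions (85%, 64 to 94.8) had an intronic midpoint, beside 77.5% and 83.7% over all genes. These intervals cover counting error only. In the CD11b+ libraries, 11 of the 12 regions outside *Myb* held a repeat 6-mer, and 0 of the 8 *Myb* regions did. By the rule given above for a count of 0, this allows a share of up to 37.5%, where the Wilson 95% limit is 32.4%. In the Lin- libraries the counts were 11 of 18 and 5 of 13. Over all genes, 24.9% of Lin- and 50.8% of CD11b+ regions held one.

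By motif, ACACAC or CACACA was found in 4 of 31 Lin- regions (12.9%) and 5 of 20 CD11b+ regions (25%), beside 8.35% and 17% over all genes. GTGTGT or TGTGTG was in 3 and 6 regions (8.09% and 24% over all genes). GAGAGA or AGAGAG was in 3 and 2 (2.99% and 11.3%), and CTCTCT or TCTCTC in 6 and 0 (7.73% and 5.79%), where the 0 allows up to 15%. Only the strand of the gene was searched, and a region can hold several of them. A run of 6 guanines was in 0 Lin- and 3 CD11b+ regions (2.58% and 5.98% over all genes), and the 0 allows up to 9.68%. The study names repeat masking with Bowtie2 and RepeatMasker for the RNA-seq reads, and per the file headers the eCLIP reads passed a repeat filter. The part of these steps in the repeat sites was not tested.

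**Figure D4:**
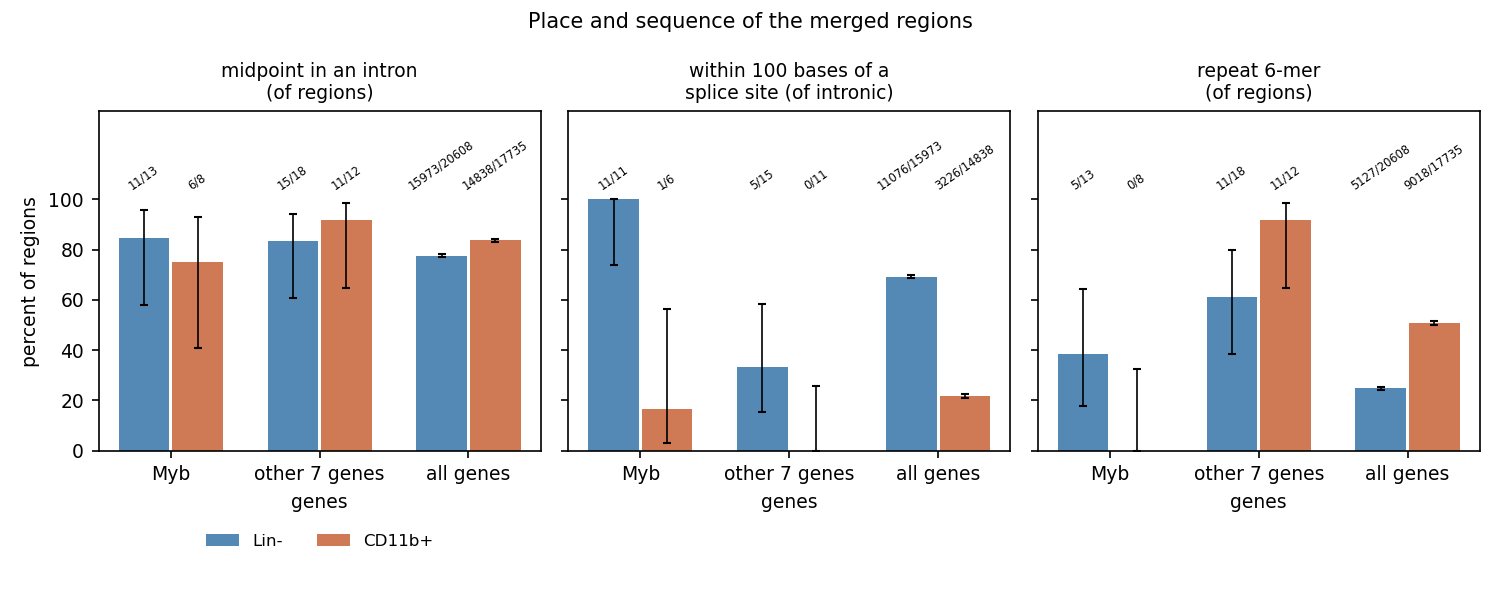
Percent of merged regions (bars, with Wilson 95% intervals and the counts above) with an intronic midpoint, percent of intronic regions within 100 bases of a splice site, and percent of regions with a repeat 6-mer, for *Myb*, the other 7 genes and all genes in each cell type. All 11 intronic Lin- regions of *Myb* were near a splice site, and 11 of 12 CD11b+ regions of the other 7 genes held a repeat.

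The RNA level of the genes ranged from very high to barely detected. The level is the authors' mean normalized count over WT and I3KO, without an error, and each cell type was normalized in a table of its own, so that ranks within a table are the safer reading. In bulk RNA, fewer cells of a type and less RNA per cell cannot be told apart. *Igf2bp3* itself stood at 2041 in Lin- and 1355 in CD11b+ cells, a mean over both genotypes that cannot check the deletion. *Myb* ranked 70 of 26560 genes in Lin- (22675) and 31 of 25887 in CD11b+ cells (37516). *Mef2c* ranked 484 (8768) and 2676 (1724), and *Meis1* 2896 (2452) and 8309 (356). *Pbx3* ranked 10711 (211.4) in Lin- and 6755 (553.6) in CD11b+ cells, and *Eya1* 10305 (258.5) and 9634 (230.9).

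*Mn1*, *Mecom* and *Prdm16* were low in the CD11b+ table. *Mn1* stood at 1409 in Lin- and 0.3702 in CD11b+ cells, *Mecom* at 321.3 and 3.441, and *Prdm16* at 77.87 and 14.74. The *Mecom* repeat thus carried 26 and 29 eCLIP reads in CD11b+ libraries 2 and 4 where the gene's pooled mean was 3.441. In Lin- cells, where the mean was 321.3, it had no filtered peak.

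Per kb of exon, the order in Lin- cells was *Myb* (6012), *Mef2c* (1200), *Meis1* (325), *Mn1* (205), *Pbx3* (74.1), *Eya1* (57.7), *Mecom* (49.6) and *Prdm16* (9.05). In CD11b+ cells it was *Myb* (9946), *Mef2c* (236), *Pbx3* (194), *Eya1* (51.5), *Meis1* (47.1), *Prdm16* (1.71), *Mecom* (0.531) and *Mn1* (0.054). Whether neighbours in these orders differ beyond their spread cannot be said, since a pooled mean has no spread.

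**Figure D5:**
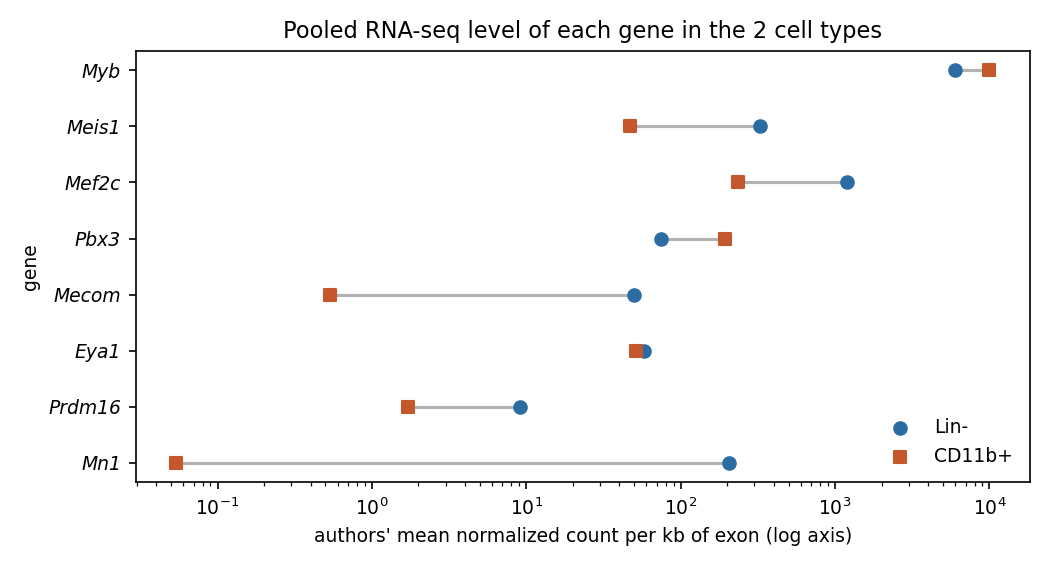
The authors' mean normalized count per kb of exon (horizontal, log axis) of each gene in Lin- (circles) and CD11b+ cells (squares), pooled over WT and I3KO and normalized separately by cell type. *Myb* had the highest value in both, and *Mn1* and *Mecom* were far lower in CD11b+ cells.

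Relatives and partners of the 8 genes were taken as a list of 24. In Lin- cells 12 of the 24 had a filtered peak, beside 26.5% of all genes and 61.2% of the long, expressed genes defined above, and 7 had one in at least 2 biological libraries, beside 13.7% of all genes (*Pbx2*, *Mef2d*, *Eya2*, *Eya3*, *Prdm2*, *Prdm11* and *Mybl2*). In CD11b+ cells 16 of the 22 that were listed had one, beside 25.6% and 67.4%, and 6 had one in both biological libraries, beside 10.2% of all genes (*Pbx2*, *Mef2d*, *Eya3*, *Six4*, *Prdm2* and *Prdm15*). The relatives were not held to the limits on count and length behind 61.2% and 67.4%, so these shares are not like for like. *Mef2d*, the closest in number to *Myb*, had 24 peaks over the 6 Lin- and 19 over the 4 CD11b+ libraries, and means of 8947 and 3484. *Prdm2*, with the second highest mean of the list in both tables (3334 and 2233), had 4 and 7. *Pbx2*, a close relative of *Pbx3*, had 4 peaks over the Lin- and 16 over the CD11b+ libraries.

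Over the 10 eCLIP libraries, the genes whose peaks per 1000 ran most like those of *Myb* among 2659 genes with peaks in at least 6 libraries were *Pkm* (Pearson r = 0.874) and *Cdk2* (0.873). For *Meis1* they were *Rpl5* (0.89) and *Gm25682* (0.873), and for *Mef2c* *Dusp5* (0.946) and *Cdk18* (0.932). These are descriptions of 10 libraries that include technical replicates and share their depth, chosen as the highest of many.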

How the data were processed

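Per the labels, the authors transduced cells with MLL-Af4 and made RNA-seq and IGF2BP3 eCLIP libraries (32 samples: 12 RNA-seq, 10 eCLIP, 10 smInput). According to the submitters' processing notes, reads were mapped to mm10 with STAR 2.5.3a, and Bowtie2 and DESeq2 were used. Per the file headers, the eCLIP reads passed a repeat filter. The authors ran CLIPper on each library and dropped peaks overlapping smInput peaks; the p-value deposited with each peak was at most 0.05. The last number in each peak's name was read as its reads (lowest 3; Spearman correlation 0.981 with −log10 of the deposited p over 85773 peaks), an inference from the values. The deposited expression signal is a mean normalized count per gene over WT and I3KO. The same tables hold the authors' own I3KO comparison (fold changes, errors, p-values and peak marks), which was not used, so the effect of the knockout is not reported. Values per library were not analysed here.

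Peaks were assigned by Ensembl ID, and places came from GENCODE M21 (GRCm38). Cell types were compared over biological libraries by their values and overlap. Two-sided exact permutation tests (smallest possible p 0.1) were computed, but their p-values are not given, since peaks were used to choose the genes. The labels call these biological replicates without naming separate cultures or animals, so their spread may be technical. Genes named follow a fixed list: the 8 genes, 24 relatives, cell type markers and, for genes with peaks in at least 6 libraries, the 2 most correlated genes. The genes and lists were chosen with earlier results of these data known. The splice site distance, the GT, GA and CT repeats, the guanine runs, the 30 kb length limit and the leaving out of repeat regions were added after seeing the data. No 2 eCLIP libraries shared more than 0.205% identical peaks. Python 3.11.15, pandas 2.3.3, NumPy 2.4.6, SciPy 1.17.1, pysam 0.24.0 and matplotlib 3.10.9 were used, and the scripts were tested on simulated data. The sequences of some regions are not reported here.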

Additional observations from a re-analysis of the deposited data

Results flagged for a closer look

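Among the smInput libraries, 1 of 6 Lin- libraries (replicate 4) had 1 peak on the 8 genes, in *Meis1* intron 8, while the other 5 had 0, and it was picked out as the library far from the others. In the same way, CD11b+ smInput replicate 4 had 1 peak on *Meis1* while the other 3 had 0. Of 8 sets of smInput values tested, 3 were picked out in this manner (the total and the *Meis1* count of the same Lin- library are 2 of them). A chance rate of about 1 in 20 groups does not apply to counts of 0 and 1, where a single peak is enough. Nothing is therefore read from the 3.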

How the results depend on the processing

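The small difference in peaks on the 8 genes (0.0112 per 1000, Lin- minus CD11b+) had no stable direction. It was -0.069 before the smInput filter, -0.353 with peaks of p below 0.001 only, and -1 as a plain number of peaks. Leaving out 1 biological library gave -0.198 (without CD11b+ replicate 1) to 0.22 (without CD11b+ replicate 2), and -0.156 without Lin- replicate 3. With replicate numbers 1 and 2 as a block it was -0.156; correlations of same-numbered deviations were -0.181 and -0.0984 over 9290 genes, and the labels say only that the numbers are shared.

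Members with a peak fell from 5 to 3 in Lin- and from 7 to 4 in CD11b+ cells when a region had to recur in 2 biological libraries, to 3 in Lin- with a p below 0.001, and from 7 to 2 in CD11b+ cells without repeat regions. Leaving out 1 biological library, with technical ones left out, gave 5 members in Lin- and 5 to 6 in CD11b+ cells. Without repeat regions, 15 of 31 Lin- and 9 of 20 CD11b+ regions were left. The intronic shares, the shares holding ACACAC or CACACA and the filter shares stayed within their intervals under every alternative run. No alternative was run for the other repeats and the guanine runs.

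In 38 of the 46 regions no peak held 20 reads or more, so a gene or site without a filtered peak was not detected at this depth, which is not the same as unbound.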
